A study of Homo sapiens with 12 samples.

Results

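Of the 29607 genes measured, 10 genes of fatty acid synthesis and desaturation were followed: FASN, ACACA, ACLY, ACSS2, SCD, FADS1, FADS2, ELOVL5, ELOVL6 and AGPAT2. They were chosen by symbol, with earlier results of these data known. Each of the 10 was among the 12731 genes that reached at least 1 TPM in at least 2 libraries and entered the tests. TPM, a unit of transcript abundance, corrects for transcript length and scales each library to the same total. The measurements came from 12 mRNA libraries of KMS11, a human line established from multiple myeloma, a plasma cell cancer, in 6 groups of 2 libraries. Their common subject was STK17B, a kinase related to the death-associated protein kinases. The inhibitor group had the wild-type genotype and received an STK17B inhibitor whose name, dose and time the labels do not give; the series design describes inhibitor treatment of cells with a control shRNA. The sh1 and sh2 groups each carried a different shRNA against STK17B without treatment. The overexpression group carried an STK17B cDNA without treatment, and its control, Vector, carried an empty vector and is labelled wild type and untreated. The shControl group carried a control shRNA and is also labelled wild type and untreated.

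Cells make fatty acids from acetyl-CoA, which ATP citrate lyase and acetyl-CoA synthetase supply in the cytosol, acetyl-CoA carboxylase turns into malonyl-CoA, and fatty acid synthase builds into palmitate. Elongases then lengthen the chains, desaturases place unsaturated bonds in them, and acyltransferases put the products into phospholipids and triglycerides. Many genes of this route are known targets of the sterol regulatory element-binding proteins, and the unsaturation of membrane lipids is known to affect lipid peroxidation, which drives ferroptosis.

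No group is labelled as vehicle, so inhibitor libraries were compared with shControl, and effects of the solvent cannot be told apart from those of the compound. The labels do not say whether libraries of a group came from separate cultures, so p-values measure the spread between these libraries, which may be technical. The control columns of the deposited table carry no group name. They were assigned to shControl and to Vector by the library numbers in their names, which is an inference, and values with the columns exchanged are given where a call or its direction changed or a called value moved by over 1.5 times. STK17B itself stood at 24.9 and 22.4 TPM with the inhibitor, at 12.7 and 10.9 TPM with sh1, at 14.7 and 14.5 TPM with sh2, and at 27.1 and 27.4 TPM in shControl. In the overexpression libraries STK17B reached 94.1 and 84.5 TPM, against 28.2 and 31.5 TPM in Vector. Of 10 plasma cell markers, 9 reached 1 TPM in every library, with sums of 4977 to 7669 TPM per library for the 10, and the tenth, CD38, did so only with the inhibitor. Of the T cell genes, CD3D and CD3G were listed at 0 in every library, while CD3E lay between 3.23 and 7.74 TPM. Libraries of the same group correlated across genes with r between 0.991 and 0.993.

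Transcripts of the 10 genes together took a smaller share of the RNA under each of the STK17B perturbations. Their summed level was 503 and 505 TPM with the inhibitor, 734 and 695 TPM with sh1, 755 and 769 TPM with sh2, and 859 and 858 TPM in shControl. The same sum was 629 and 627 TPM with overexpression, against 834 and 841 TPM in Vector. Most of the sum came from SCD, ACLY, FASN and FADS2, at 238, 219, 169 and 102 TPM in shControl. It says little about the other members, of which ACSS2 and ELOVL6 were called higher with the shRNAs. Sums of the inhibitor and of each shRNA lay below shControl in every library, and overexpression lay below Vector in every library. In a bulk library, fewer cells with a transcript and less of it per cell cannot be told apart.

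The members differed widely in level in shControl. SCD averaged 238 TPM, which ranked 586 among the 12731 tested genes, followed by ACLY at 219 TPM, FASN at 169 TPM and FADS2 at 102 TPM. Lower levels were found for ELOVL5 at 64.9 TPM, ELOVL6 at 21.5 TPM, ACACA at 16.6 TPM and FADS1 at 14.5 TPM. AGPAT2 at 8.23 TPM and ACSS2 at 4.81 TPM were the lowest, and the rank of ACSS2 was 8861. Over the 12 libraries the level of FADS2 spanned a factor of 5.35, that of FADS1 3.39, ACSS2 2.83 and SCD 2.56, whereas ACLY spanned 1.297 and ELOVL5 1.33.

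**Figure D1:**
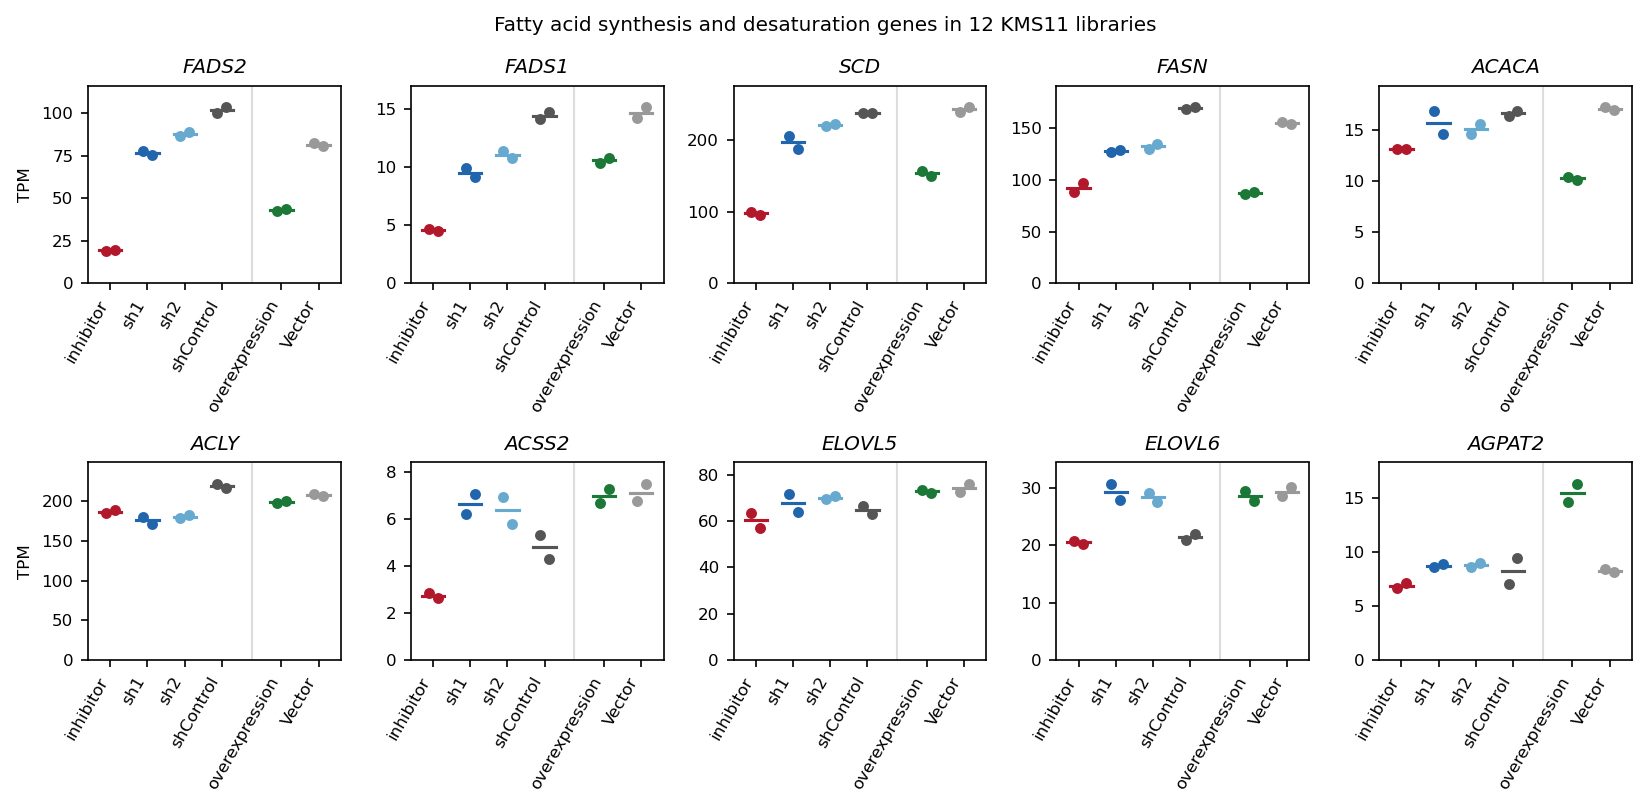
TPM of the 10 genes in each of the 12 libraries, a panel per gene, with the treated groups left of their control and short lines at the group means. FADS2 is lowest in the inhibitor libraries, at 19.3 and 19.4 TPM, and AGPAT2 is highest in the overexpression libraries, at 14.7 and 16.3 TPM.

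Among the 10 genes, the 3 desaturases changed most with the inhibitor. FADS2, the desaturase that starts the synthesis of polyunsaturated fatty acids from the essential ones, measured 19.3 and 19.4 TPM with the inhibitor, 77.8 and 75.2 TPM with sh1, 86.3 and 88.9 TPM with sh2, and 100.01 and 103 TPM in shControl. FADS2 measured 42.6 and 43.4 TPM with overexpression and 82.2 and 80.4 TPM in Vector. The 6 groups did not overlap for FADS2, and their order from low to high was inhibitor, overexpression, sh1, Vector, sh2 and shControl. On the log2(TPM + 1) scale used for every test, FADS2 fell by 2.34 with the inhibitor (SE 0.034, limma with Benjamini-Hochberg adjusted p = 4.1e-10), which left a mean of 19.0% of its shControl level in TPM. FADS2 also fell by 0.31 with both shRNAs combined (SE 0.030, limma adjusted p = 3.5e-05) and by 0.90 with overexpression (SE 0.034, limma adjusted p = 3.1e-07). The call for the shRNAs rests on the control used: with the control columns exchanged the FADS2 difference was 0.01, while the falls with the inhibitor (-2.02) and with overexpression (-1.22) were still called.

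FADS1, the desaturase that acts later in the polyunsaturated route and forms arachidonic acid, followed at a lower level. It measured 4.65 and 4.48 TPM with the inhibitor, 9.98 and 9.14 TPM with sh1, 11.4 and 10.8 TPM with sh2, and 14.2 and 14.7 TPM in shControl. Overexpression libraries held 10.4 and 10.8 TPM of FADS1, against 14.3 and 15.2 TPM in Vector. Every inhibitor and shRNA library lay below every shControl library, and the overexpression libraries lay below those of Vector. The log2 change of FADS1 was -1.47 with the inhibitor (SE 0.061, limma adjusted p = 3.6e-07), -0.45 with the shRNAs (SE 0.053, adjusted p = 0.00012) and -0.44 with overexpression (SE 0.061, adjusted p = 0.00057).

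The ratio of FADS2 to FADS1, both in TPM, differed between groups. It averaged 4.24 with the inhibitor, 8.01 with sh1, 7.90 with sh2 and 7.03 in shControl, and it averaged 4.06 with overexpression and 5.53 in Vector. FADS1 and FADS2 lie on opposite strands of chromosome 11 (GRCh38, FADS1 at chr11:61799625-61829318 on the minus strand, FADS2 at chr11:61792980-61867354 on the plus strand, GENCODE annotation). The span of FADS1 lies within that of FADS2, and they share 490 exonic bases, 4.79% of those of FADS1 and 4.44% of those of FADS2. The libraries were stranded per the labels, but whether counting used the strand is not given in the sources used here, so reads in the shared bases may have been split between them.

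SCD (chr10:100347124-100364834, plus strand), stearoyl-CoA desaturase, which makes monounsaturated fatty acids such as oleate, measured 99.5 and 96.1 TPM with the inhibitor, 206 and 189 TPM with sh1, 220.1 and 223 TPM with sh2, and 238 and 238 TPM in shControl. The corresponding levels were 157 and 151 TPM with overexpression and 240.2 and 246 TPM in Vector. The inhibitor libraries held 41.1% of the mean SCD level of shControl, and no library of a treated group reached its control. SCD fell by 1.27 log2 units with the inhibitor (SE 0.042, limma adjusted p = 7.1e-08), by 0.66 with overexpression (SE 0.042, adjusted p = 6.3e-06) and by 0.19 with the shRNAs together (SE 0.036, adjusted p = 0.0023). Taken singly, sh1 gave a log2 change of -0.27 in SCD (adjusted p = 0.00064), and sh2 gave -0.10, which was not called (limma adjusted p = 0.087).

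The promoters of SCD, FADS1 and FADS2 are shown because these genes were called lower in each main comparison, for FADS2 with the shRNAs only as the controls were assigned. That of AGPAT2 is shown because it was the only one of the 10 called higher with overexpression. The stretches below come from RefSeq (GRCh38.p14), lie within the 250 bases before a transcript start and hold no base that GENCODE annotates as an exon. For SCD, FADS1 and FADS2 the RefSeq start used lies within the span that GENCODE gives the gene. They are written 5′ to 3′ on the gene's strand, with CCAAT, the NF-Y motif, and GGGCGG, the GC box bound by SP1, in capitals; CCGCCC is GGGCGG on the other strand.
SCD promoter, chr10:100346983-100347123, plus strand: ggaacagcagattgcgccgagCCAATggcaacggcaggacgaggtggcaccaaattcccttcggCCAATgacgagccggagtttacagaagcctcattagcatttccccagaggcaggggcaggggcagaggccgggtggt
FADS1 promoter, chr11:61817198-61817253, minus strand: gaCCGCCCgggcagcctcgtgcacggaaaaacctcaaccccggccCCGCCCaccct
FADS2 promoter, chr11:61816154-61816255, plus strand: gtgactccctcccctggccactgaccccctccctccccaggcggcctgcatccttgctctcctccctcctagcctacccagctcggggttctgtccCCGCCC
AGPAT2 promoter, chr9:136687458-136687707, minus strand: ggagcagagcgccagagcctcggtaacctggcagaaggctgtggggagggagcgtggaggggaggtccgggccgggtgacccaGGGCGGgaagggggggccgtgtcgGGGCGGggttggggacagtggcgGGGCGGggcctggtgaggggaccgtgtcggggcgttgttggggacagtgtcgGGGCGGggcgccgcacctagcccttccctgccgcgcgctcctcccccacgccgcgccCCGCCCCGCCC

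The SCD stretch holds CCAAT 229 and 186 bases before the RefSeq start, the AGPAT2 stretch holds GGGCGG 6 times, and the printed FADS2 stretch ends in CCGCCC and holds no CCAAT. Another RefSeq start of FADS2 has the window chr11:61815953-61816202, which held 0 of the motifs searched. Its exon-free stretch of 54 bases is not printed. RefSeq promoters were matched for 9 of the 10 genes, in 14 windows of 250 bases; FASN is named only. Searched on both strands, CCAAT lay in 7 of the 14 windows, those of SCD, ACACA, ACLY, ACSS2 and ELOVL5, and in 32.0% of 35116 promoter windows of the same length. GGGCGG lay in 11 of the 14 windows and in 42.6% of all windows. The 14 windows are not all distinct, since those of ACLY overlap and repeat the same sites, and those of FADS2 overlap. By gene, CCAAT lay in windows of 5 of the 9 genes and GGGCGG in those of 8. TCACNCCAC, a form of the sterol regulatory element, lay in 0 of the 14 windows and in 0.883% of all windows, and the E-box CACGTG lay in 1 of the 14, that of ELOVL5, and in 6.34% of all. These matches describe letters in the windows and were not tested against the expression values.

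Fatty acid synthase and acetyl-CoA carboxylase fell with the inhibitor and with overexpression. FASN (chr17:82078333-82098332, minus strand), the multifunctional enzyme that builds palmitate, measured 88.0 and 96.3 TPM with the inhibitor, 127 and 129 TPM with sh1, 129.8 and 134 TPM with sh2, and 168 and 169.6 TPM in shControl. With overexpression FASN measured 86.1 and 88.4 TPM, against 156 and 153 TPM in Vector. The inhibitor and overexpression libraries were the lowest of the 12 and overlapped each other. FASN fell by 0.87 log2 units with the inhibitor (SE 0.042, limma adjusted p = 9.6e-07), by 0.82 with overexpression (SE 0.042, adjusted p = 1.7e-06) and by 0.38 with the shRNAs (SE 0.036, adjusted p = 3.4e-05). With control columns exchanged these changes of FASN were -0.74, -0.95 and -0.25, each still called.

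ACACA (chr17:37084988-37406818, minus strand), which makes malonyl-CoA and is the committed step of the route, measured 13.2 and 13.1 TPM with the inhibitor, 16.9 and 14.6 TPM with sh1, 14.6 and 15.5 TPM with sh2, and 16.4 and 16.9 TPM in shControl. Its overexpression libraries held 10.4 and 10.1 TPM, against 17.2 and 16.95 TPM in Vector. The 2 overexpression libraries were the lowest of the 12 for ACACA, and the sh1 libraries overlapped shControl. ACACA fell by 0.68 log2 units with overexpression (SE 0.066, limma adjusted p = 7.2e-05) and by 0.32 with the inhibitor (SE 0.066, adjusted p = 0.0044). The shRNA change of ACACA was -0.11 (adjusted p = 0.15) and was not called, although it was called after rescaling by the median of ratios (-0.14), after quantile normalization (-0.16) and without the sh1 replicate 1 library (-0.16).

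The acetyl-CoA suppliers differed from each other. ACLY (chr17:41866908-41930542, minus strand), which cleaves exported citrate into cytosolic acetyl-CoA, measured 185 and 188 TPM with the inhibitor, 180.2 and 171 TPM with sh1, 178 and 183 TPM with sh2, and 222 and 217 TPM in shControl. With overexpression ACLY held 198 and 199.6 TPM, against 209 and 207 TPM in Vector. Each inhibitor and shRNA library lay below shControl, and the shRNA libraries also lay below the inhibitor libraries. ACLY fell by 0.30 log2 units with the shRNAs (SE 0.027, limma adjusted p = 2.5e-05) and by 0.23 with the inhibitor (SE 0.031, adjusted p = 0.00042), which was -0.15 and still called with the control columns exchanged. Its overexpression change was -0.06 (adjusted p = 0.15, not called), and it was called after median-of-ratios rescaling (-0.17) and with the control columns exchanged (-0.14). ACLY shares 156 exonic bases, 2.99% of its own, with the antisense gene AC125257.2.

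ACSS2 (chr20:34872146-34927962, plus strand), which makes acetyl-CoA from acetate, measured 2.84 and 2.65 TPM with the inhibitor, 6.22 and 7.06 TPM with sh1, 6.93 and 5.80 TPM with sh2, and 5.33 and 4.29 TPM in shControl. It measured 6.70 and 7.27 TPM with overexpression and 6.75 and 7.51 TPM in Vector. The inhibitor libraries were the lowest of the 12, the shRNA libraries lay above shControl, and overexpression and Vector overlapped. ACSS2 fell by 0.63 log2 units with the inhibitor (SE 0.112, limma adjusted p = 0.0020; -1.12 with the control columns exchanged) and rose by 0.37 with the shRNAs (SE 0.097, adjusted p = 0.012). That rise was not called without the shControl replicate 2 library (0.24), and with control columns exchanged the difference in ACSS2 was -0.12. The overexpression change of ACSS2 was -0.03 (adjusted p = 0.89, 95% interval -0.28 to 0.23), but 0.46 and called with the control columns exchanged.

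ELOVL6 (chr4:110045846-110199199, minus strand), the elongase that lengthens palmitate, had 4 low libraries. It measured 20.7 and 20.2 TPM with the inhibitor, 30.7 and 27.9 TPM with sh1, 29.1 and 27.5 TPM with sh2, and 20.9 and 22.0 TPM in shControl. With overexpression ELOVL6 measured 29.5 and 27.7 TPM, against 28.5 and 30.1 TPM in Vector. The inhibitor and shControl libraries were the low ones, and the other 8 lay between 27.5 and 30.7 TPM. ELOVL6 rose by 0.41 log2 units with the shRNAs (SE 0.051, limma adjusted p = 0.00018), but the same shRNA libraries differed by -0.02 from the other control pair when the columns were exchanged. With the inhibitor the ELOVL6 change was -0.07 (adjusted p = 0.41) and with overexpression -0.04 (adjusted p = 0.67). Neither was called as deposited, and the inhibitor change was called after quantile normalization (-0.16) and the overexpression change after median-of-ratios rescaling (-0.14). With the control columns exchanged both were called, at -0.50 with the inhibitor and 0.40 with overexpression.

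ELOVL5 (chr6:53267398-53349179, minus strand), the elongase of polyunsaturated chains, passed the test in none of these comparisons. Its libraries held 63.5 and 57.1 TPM with the inhibitor, 71.9 and 64.0 TPM with sh1, 69.4 and 70.7 TPM with sh2, and 66.6 and 63.3 TPM in shControl. Overexpression libraries held 73.3 and 72.3 TPM of ELOVL5, against 72.7 and 76.2 TPM in Vector. The inhibitor overlapped shControl, and overexpression overlapped Vector. The log2 change of ELOVL5 was -0.11 with the inhibitor (limma adjusted p = 0.21, 95% interval -0.25 to 0.04), 0.09 with the shRNAs (adjusted p = 0.23, interval -0.04 to 0.21) and -0.03 with overexpression (adjusted p = 0.74, interval -0.17 to 0.11). The inhibitor change of ELOVL5 was called after median-of-ratios rescaling (-0.17) and after quantile normalization (-0.24), and with the control columns exchanged the inhibitor change was -0.30 and the overexpression change 0.16, both called.

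AGPAT2 (chr9:136673143-136687423, minus strand), an acyltransferase that forms phosphatidic acid for phospholipids and triglycerides, was the only member called higher with overexpression. It measured 14.7 and 16.3 TPM with overexpression, against 8.40 and 8.16 TPM in Vector. The other treated groups held 6.66 and 7.12 TPM with the inhibitor, 8.57 and 8.90 TPM with sh1 and 8.61 and 9.01 TPM with sh2, and shControl held 7.01 and 9.45 TPM. Its 2 overexpression libraries were the highest of the 12, while the inhibitor and shRNA libraries each overlapped the widely spaced shControl pair. AGPAT2 rose by 0.83 log2 units with overexpression (SE 0.109, limma adjusted p = 0.00042). The inhibitor change of AGPAT2 was -0.21 (adjusted p = 0.15, not called), and -0.41 and called without the shControl replicate 1 library. With the shRNAs the AGPAT2 change was 0.09 (adjusted p = 0.45, 95% interval -0.12 to 0.31). It was -0.10 and not called without the shControl replicate 1 library, and 0.29 and called without shControl replicate 2.

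**Figure D2:**
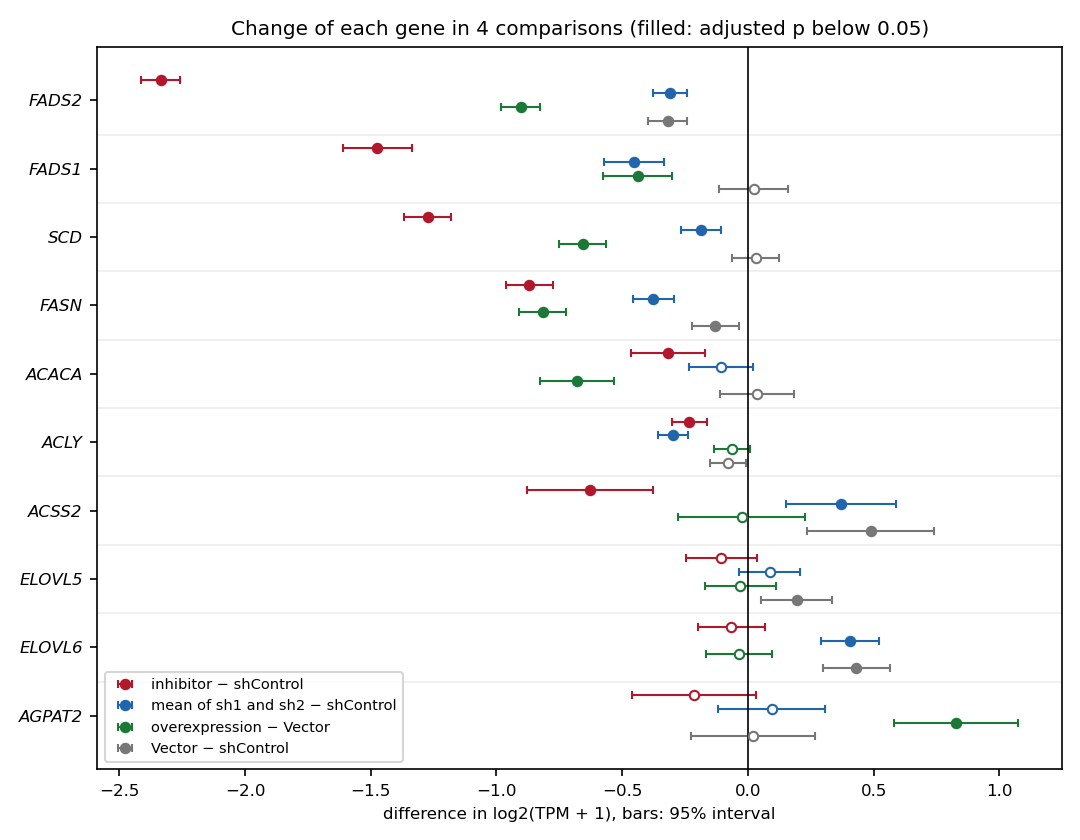
Change in log2(TPM + 1) of the 10 genes for inhibitor minus shControl, mean of sh1 and sh2 minus shControl, overexpression minus Vector, and Vector minus shControl. Bars are 95% intervals, filled points have an adjusted p below 0.05, and FADS2 with the inhibitor lies farthest to the left at -2.34.

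Counted together, 7 of the 10 members fell with the inhibitor and 0 rose, where 11.8% of the 12731 tested genes were called lower and 28% higher. The 10 genes were chosen with earlier results of these data known, so the counts set beside shares of all genes are descriptive. By limma the members higher with the inhibitor also numbered 0 at an unadjusted p below 0.05, and each of the 10 estimates was below 0. The median log2 change of the members was -0.47, against 0.08 over all tested genes. Among all calls with the inhibitor 70.3% were higher, but this share was 55.9% after median-of-ratios rescaling and 51.9% after quantile normalization. With the control columns exchanged 27% of all tested genes were called lower with the inhibitor and 26% higher, and 9 members were called lower, ELOVL5 and ELOVL6 included. With the shRNAs together 5 members fell, FADS1, FASN, FADS2, ACLY and SCD, and 2 rose, ELOVL6 and ACSS2, where 20.2% of all tested genes were called lower and 26.2% higher. The share of higher calls over all genes with the shRNAs was 56.4% as deposited, 48.7% after median-of-ratios rescaling and 47.7% after quantile normalization. With the control columns exchanged 29.4% of all tested genes were called lower with the shRNAs and 18.6% higher. The members then called lower were FASN, ACLY, SCD and FADS1. The median of the members was -0.15, against 0.03 over all genes. With overexpression 5 members fell, FADS2, FASN, ACACA, SCD and FADS1, and AGPAT2 rose, where 10.3% of all tested genes were called lower and 26.6% higher. That median was -0.25, against 0.08 over all genes. The share of higher calls over all genes with overexpression was 72.1% as deposited, 43.1% after median-of-ratios rescaling and 46.3% after quantile normalization, and with the control columns exchanged 13.7% of all tested genes were called lower and 44.9% higher. FADS2, FADS1, SCD and FASN were called lower in each of these comparisons, of which the inhibitor and the shRNAs share the shControl libraries. For FADS2 the fall with the shRNAs rests on the control used. With the control columns exchanged it was 0.01 and not called.

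For each shRNA alone, sh1 gave 5 members lower and 2 higher, where 21.3% of all tested genes were called lower and 23.7% higher. The shRNA sh2 gave 4 members lower and 2 higher, where 13.4% were called lower and 22% higher; 62.2% of its calls over all genes were higher as deposited, 47.8% after median-of-ratios rescaling and 46.8% after quantile normalization. Between the shRNAs, FADS2 was the only member called, higher with sh2 by 0.19 log2 units (SE 0.034, limma adjusted p = 0.034), where 1.16% of all tested genes were called higher. That FADS2 call was lost when any of the 4 shRNA libraries was left out (0.17 to 0.22). The share of higher calls in that comparison was 75.1% as deposited, 52.6% after median-of-ratios rescaling and 54.1% after quantile normalization. STK17B was the less reduced with sh2 by value, at 53.6% of its shControl mean in TPM, against 43.4% with sh1, a difference that was not called (0.29, limma adjusted p = 0.12).

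The controls also differed from each other. Between Vector and shControl 2 members were called lower in Vector and 3 higher, where 7.86% of all tested genes were called lower and 21.4% higher. FADS2 was lower in Vector by 0.32 log2 units (limma adjusted p = 0.00022), beside a change of -0.31 with the shRNAs, and FASN was lower by 0.13 (adjusted p = 0.043). ELOVL6 was higher in Vector by 0.43 (adjusted p = 0.00077), ACSS2 by 0.49 (adjusted p = 0.011) and ELOVL5 by 0.19 (adjusted p = 0.044). Of all calls between the controls 73.1% were higher in Vector as deposited, 42.9% after median-of-ratios rescaling and 48.4% after quantile normalization, and the median log2 difference of all genes was 0.09, 0.00 and -0.02 under the same settings. The calls of FASN and ELOVL5 were lost when any of the 4 control libraries was left out (FASN -0.14 to -0.12, ELOVL5 0.16 to 0.23), and that of ACSS2 without shControl replicate 2 (0.36) or Vector replicate 2 (0.42). Every member was lower in both inhibitor libraries than in both Vector libraries. Against shControl this held for 8 members, and 2 overlapped. The share of all tested genes in such an order was not computed, so these counts cannot be read as an excess over all genes. By limma 11.8% of all tested genes were called lower with the inhibitor against shControl and 28% higher. With the control columns exchanged these shares were 27% and 26%.

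Direct tests between the treatments separated the members further. Against the mean of the shRNA groups, the inhibitor libraries had 9 members lower and 0 higher, where 21.6% of all tested genes were called lower and 30.9% higher. FADS2 differed by -2.03 (limma adjusted p = 2.7e-10), SCD by -1.09, FADS1 by -1.02, ACSS2 by -0.999, FASN by -0.49 and ELOVL6 by -0.47. ACACA differed by -0.21, ELOVL5 by -0.19 and AGPAT2 by -0.31, and ACLY alone was not called (0.07, limma adjusted p = 0.068, 95% interval 0.00 to 0.13); at an unadjusted p below 0.05 the members higher numbered 1, ACLY, which was also called without the sh1 replicate 1 library. The calls of ACACA, ELOVL5 and AGPAT2 were lost without 1 or other library: ACACA and AGPAT2 without either inhibitor library, ELOVL5 without inhibitor replicate 2 (-0.12) and AGPAT2 also without sh2 replicate 2 (-0.29). The estimates of this comparison do not use the control libraries, which still enter the estimate of the spread behind its p-values.

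**Figure D3:**
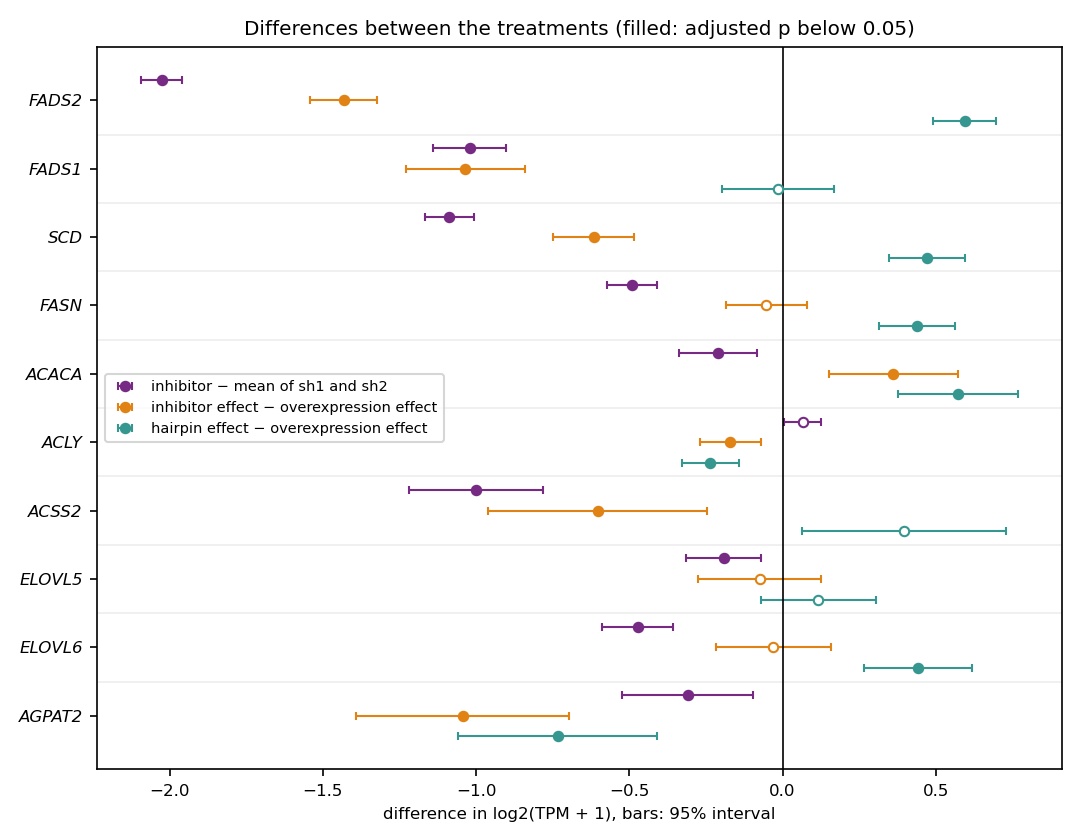
Differences between the treatments in log2(TPM + 1) with 95% intervals for the 10 genes: inhibitor minus the mean of the shRNA groups, inhibitor effect minus overexpression effect, and shRNA effect minus overexpression effect. Filled points have an adjusted p below 0.05; the inhibitor and overexpression effects on FASN differ by -0.05 and FADS2 by -1.43.

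The inhibitor effect minus the overexpression effect, each against its own control, was called below 0 for 6 members and above 0 for 1, where 17.6% and 17.8% of all tested genes were called. FADS2 differed by -1.43 (SE 0.049, limma adjusted p = 7.5e-08), FADS1 by -1.04, AGPAT2 by -1.04, SCD by -0.62, ACSS2 by -0.60 and ACLY by -0.17. ACACA differed by 0.36 (SE 0.093, adjusted p = 0.014), since it was reduced more with overexpression. The ACLY difference was not called after median-of-ratios rescaling (-0.12), with control columns exchanged (-0.01) or without the shControl replicate 1 library (-0.15). That of ACSS2 was not called after quantile normalization (-0.44) or without the shControl replicate 1 (-0.47), Vector replicate 1 (-0.54) or overexpression replicate 2 (-0.55) library. The FASN effects differed by -0.05 (adjusted p = 0.52, 95% interval -0.19 to 0.08), which was 0.21 and called with the control columns exchanged, when ELOVL5 (-0.46) and ELOVL6 (-0.89) were called too. Under that exchange ACSS2 stood at -1.58 and FADS2 at -0.79, both called, and 42.1% of all tested genes were called below 0 and 20.8% above.

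The shRNA effect minus the overexpression effect was called above 0 for 5 members and below 0 for 2, where 11.4% and 18.5% of all tested genes were called. Of all calls in this comparison 38% were above 0 as deposited, 55.7% after median-of-ratios rescaling and 52% after quantile normalization. FADS2 differed by 0.59, ACACA by 0.57, SCD by 0.47, FASN by 0.44 and ELOVL6 by 0.44, with a limma adjusted p of at most 0.0026 each. AGPAT2 differed by -0.73 and ACLY by -0.24. With the control columns exchanged FADS2 stood at 1.23 and FASN at 0.70, ELOVL6 at -0.42, ACSS2 at -0.58 and ELOVL5 at -0.27 were called below 0, and ACLY at -0.08 was not called. Under that exchange 14.5% of all tested genes were called above 0 and 45.3% below. For FADS1 the effects differed by -0.01 (adjusted p = 0.91, 95% interval -0.20 to 0.17).

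Across the 12 libraries SCD and FADS2 varied most alike among the members, with a Pearson r of 0.98 on the log2(TPM + 1) scale, followed by SCD with FADS1 at 0.94, FADS1 with FADS2 at 0.90 and FASN with ACACA at 0.89. AGPAT2 ran against ACACA at -0.69. These values describe 12 libraries of 6 groups that share their scaling. A mean of at least 10 TPM was reached by 7215 genes, a number that includes members. Among those outside the 10, the genes most like FADS2 included CD276, an immune checkpoint protein, at 0.95, RPL18 at 0.91, IGF2BP1 at 0.91 and lanosterol synthase LSS at 0.90. For FASN the 5 were RPL27A at 0.98, RPS7 at 0.93, GYPC at 0.93, RPL39 at 0.92 and the lipoprotein receptor SCARB1 at 0.91. The means of CD276 were 6.47 TPM with the inhibitor, 11.3 TPM with sh1, 11.4 TPM with sh2 and 11.6 TPM in shControl, and 9.83 TPM with overexpression and 11.9 TPM in Vector.

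Counts of the other lists stand beside the shares of all tested genes called, which were 28% higher and 11.8% lower with the inhibitor, 26.2% higher and 20.2% lower with the shRNAs, and 26.6% higher and 10.3% lower with overexpression. Their medians stand beside 0.08, 0.03 and 0.08 log2 units over all tested genes in the same order. These lists were also chosen with earlier results of these data known, so their counts are descriptive. A list of regulators of the sterol regulatory element-binding proteins and of the factor ChREBP had 16 tested genes. It included SREBF1 and SREBF2 themselves, MLX, STK11 and PRKAA1. Of the 16, 5 rose and 4 fell with the inhibitor, 8 rose and 2 fell with the shRNAs, and 5 rose and 3 fell with overexpression, with medians of -0.02, 0.13 and 0.09. SREBF1, which encodes the transcription factor best known for driving fatty acid genes, measured 65.7 and 73.6 TPM with the inhibitor and 123 and 126 TPM in shControl, a log2 change of -0.83 (limma adjusted p = 2.9e-06). Its change was 0.10 with the shRNAs (adjusted p = 0.081) and -0.01 with overexpression (adjusted p = 0.94), and neither was called; with the control columns exchanged, tried for these lists after the data were seen, they were -0.16 and 0.25 and both called. INSIG1, which holds the factors in the endoplasmic reticulum and is itself their target, measured 175 and 169 TPM with the inhibitor, 154 and 148 TPM with sh1, 202 and 197 TPM with sh2, and 348 and 342 TPM in shControl. INSIG1 fell by 0.997 log2 units with the inhibitor (adjusted p = 1.6e-07), by 0.99 with the shRNAs (adjusted p = 1.2e-07) and by 0.61 with overexpression (adjusted p = 5.1e-06). INSIG2 measured 41.8 and 37.0 TPM with overexpression and 17.97 and 18.7 TPM in Vector, a rise of 1.06 (adjusted p = 4.9e-05), and it fell by 1.19 with the inhibitor (adjusted p = 2.4e-05).

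Of 13 tested suppliers of acetyl-CoA, citrate and NADPH, 5 rose and 3 fell with the inhibitor, 4 rose and 5 fell with the shRNAs, and 3 rose and 6 fell with overexpression, with medians of 0.10, 0.00 and -0.11. SLC25A1, the carrier that exports citrate from mitochondria, measured 59.1 and 63.7 TPM with the inhibitor and 90.5 and 85.8 TPM in shControl, a log2 change of -0.52 (limma adjusted p = 8.2e-05). The NADPH-forming malic enzyme ME1 rose by 0.78 with the inhibitor (adjusted p = 2.4e-05) and by 0.30 with the shRNAs (adjusted p = 0.0015; 0.18 with the control columns exchanged), and it fell by 0.44 with overexpression (adjusted p = 0.00061). IDH1, another source of NADPH, fell by 0.42 with the inhibitor (adjusted p = 0.0015) and rose by 0.44 with the shRNAs (adjusted p = 0.00038).

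Of 12 other tested enzymes of elongation and desaturation, 4 rose and 2 fell with the inhibitor, 3 rose and 3 fell with the shRNAs, and 0 rose and 2 fell with overexpression (limma; 0 and 3 at an unadjusted p below 0.05). Their medians were 0.16, -0.14 and -0.05. HSD17B12, a reductase of the elongation cycle, fell by 0.33 log2 units with the inhibitor (limma adjusted p = 0.0021) and by 0.33 with the shRNAs (adjusted p = 0.00069). FADS3, a neighbour of FADS1 and FADS2 in the same gene cluster, rose by 0.39 with the shRNAs (adjusted p = 0.010), and its inhibitor change was 0.32 (adjusted p = 0.052, not called). The direction of FADS3 rests on the control used, since with the columns exchanged it was called lower, at -0.58 with the shRNAs and -0.65 with the inhibitor, and called higher, at 0.92, with overexpression. Of 8 tested genes of mitochondrial fatty acid synthesis, 1 rose and 1 fell with the inhibitor, and 2 rose and 0 fell with overexpression (limma; also 2 and 0 at an unadjusted p below 0.05). With the shRNAs limma called 0, and 0 had an unadjusted p below 0.05.

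Of 12 tested genes of fatty acid uptake and activation, 3 rose and 6 fell with the inhibitor, 2 rose and 5 fell with the shRNAs, and 2 rose and 5 fell with overexpression, with medians of -0.19, -0.14 and -0.14. ACSL4, the acyl-CoA synthetase that prefers polyunsaturated chains and promotes ferroptosis, fell by 0.39 log2 units with the inhibitor (limma adjusted p = 0.012) and by 0.45 with the shRNAs (adjusted p = 0.0024). FABP5, a fatty acid carrier, rose by 0.34 with the inhibitor (adjusted p = 0.00018), and it fell by 0.31 with the shRNAs (adjusted p = 9.0e-05) and by 0.41 with overexpression (adjusted p = 7.3e-05). With the control columns exchanged FABP5 stood at 0.56, -0.09 and -0.62 in the same comparisons, and the shRNA change was not called.

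Around AGPAT2, 15 tested genes of glycerolipid assembly and storage gave 5 higher and 3 lower with the inhibitor, 8 higher and 2 lower with the shRNAs, and 6 higher and 1 lower with overexpression, with medians of -0.02, 0.17 and 0.13. AGPAT9, an older symbol of GPAT3, which acts a step before AGPAT2, measured 28.2 and 24.8 TPM with the inhibitor and 11.7 and 11.4 TPM in shControl, a rise of 1.13 log2 units (limma adjusted p = 3.6e-06). HILPDA, a lipid droplet protein that inhibits triglyceride breakdown, measured 80.8 and 82.6 TPM with overexpression and 33.2 and 31.8 TPM in Vector, and it rose by 1.303 (adjusted p = 3.8e-06). With the inhibitor HILPDA fell by 1.21 (adjusted p = 4.9e-06) and with the shRNAs by 0.76 (adjusted p = 1.9e-05), or -0.49 with the control columns exchanged.

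Of 19 tested oxidation genes, 7 rose and 2 fell with the inhibitor, 11 rose and 1 fell with the shRNAs, and 7 rose and 1 fell with overexpression, with medians of 0.09, 0.20 and 0.11. The mitochondrial acylcarnitine carrier SLC25A20 rose by 0.74 log2 units with the inhibitor (limma adjusted p = 8.5e-06). Of 21 tested cholesterol synthesis genes, 1 rose and 12 fell with the inhibitor, 11 rose and 3 fell with the shRNAs, and 1 rose and 17 fell with overexpression. FDFT1, squalene synthase, fell by 0.54 with the inhibitor (adjusted p = 2.0e-06), SQLE, squalene epoxidase, fell by 0.75 with overexpression (adjusted p = 5.0e-06), and MSMO1 rose by 0.43 with the shRNAs (adjusted p = 5.0e-05). The median cholesterol gene stood at -0.23, 0.13 and -0.41 with inhibitor, shRNAs and overexpression, where the median of the 10 fatty acid genes stood at -0.47, -0.15 and -0.25.

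With the control columns exchanged, several of these counts moved by over 1.5 times. With the shRNAs the cholesterol list gave 17 higher and 0 lower, the oxidation list 4 lower and the elongation and desaturation list 8 lower. The glycerolipid list then gave 5 higher, and that of mitochondrial synthesis 1 higher and 1 lower. Of all tested genes 18.6% were called higher and 29.4% lower under that exchange. With the inhibitor the genes called lower were 7 regulators, 6 of citrate and NADPH supply, 5 of elongation and desaturation, 6 of glycerolipid assembly and 5 of oxidation. Called higher were 3 cholesterol genes and 2 of elongation and desaturation. Of all tested genes 26% were then called higher and 27% lower with the inhibitor. With overexpression 4 genes of elongation and desaturation and 12 of oxidation were called higher, where 0 and 7 had been, and for cholesterol 0 were higher and 17 lower. Called lower were 1 gene of elongation and desaturation, 2 of oxidation and 1 of mitochondrial synthesis. Of all tested genes 44.9% were then called higher and 13.7% lower with overexpression.

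**Figure D4:**
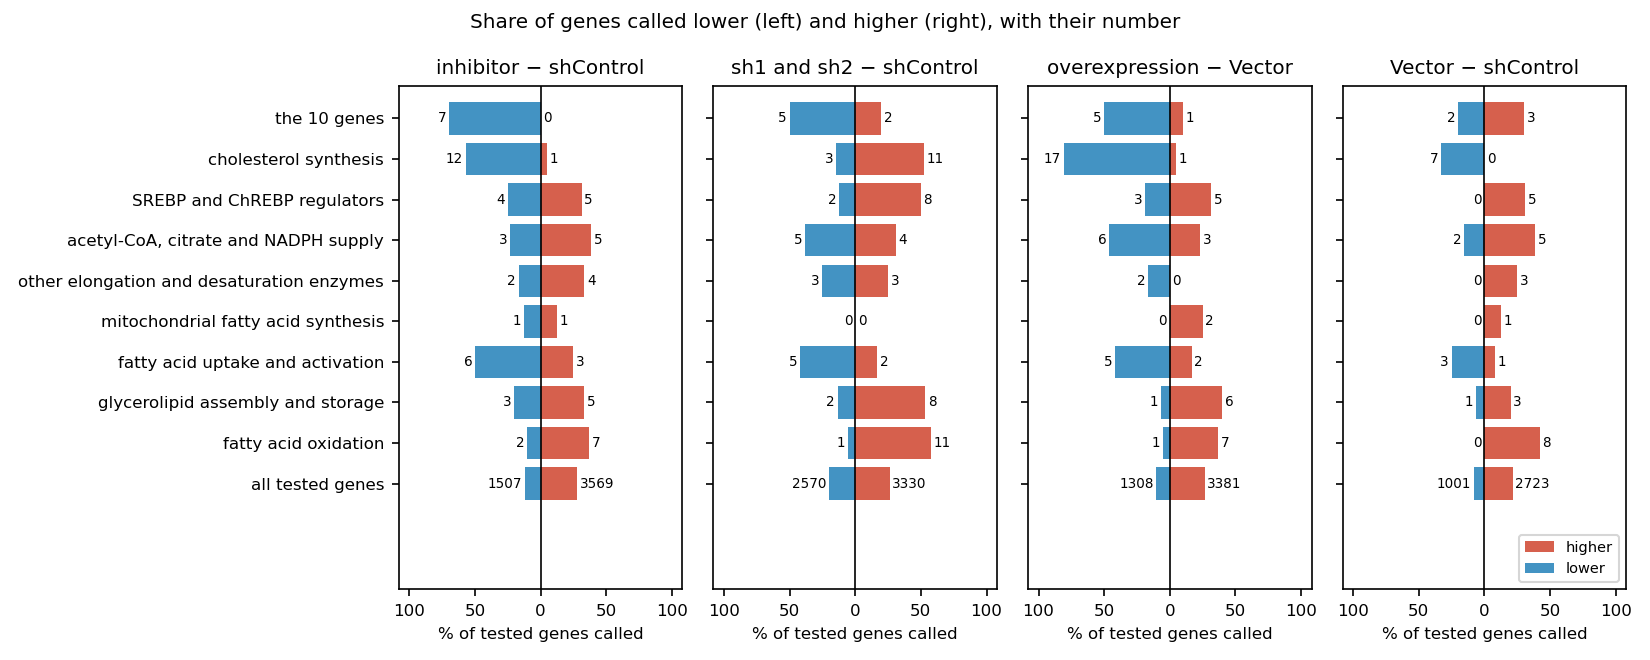
Share of the tested genes of each list called lower, to the left, and higher, to the right, in percent, with their number beside each bar, in 4 comparisons. Among the 10 genes 7, 5, 5 and 2 are called lower in the panels from left to right, and the cholesterol list has 12, 3, 17 and 7.

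Plasma cell markers were called in the same comparisons. Of the 10 markers, 9 fell and 1, CD38, rose with the inhibitor, 9 fell and 0 rose with the shRNAs (limma; also 9 and 0 at an unadjusted p below 0.05), and 7 fell and 1 rose with overexpression. Over all tested genes 11.8%, 20.2% and 10.3% were called lower and 28%, 26.2% and 26.6% higher in the same order. With the control columns exchanged 8 markers fell and 2 rose with the inhibitor, and 5 fell and 2 rose with overexpression. TNFRSF17 then stood at 0.12 with the inhibitor, called higher, where it had been -0.22 and called lower. Under that exchange 27% and 13.7% of all tested genes were called lower and 26% and 44.9% higher. The summed level of the 10 markers was 5244 and 4977 TPM with the inhibitor, 5725 and 5449 TPM with sh1, 6070 and 6182 TPM with sh2, and 7222 and 7245 TPM in shControl, and it was 7669 and 7366 TPM with overexpression and 7136 and 7654 TPM in Vector. CD38 measured 1.24 and 1.47 TPM with the inhibitor and 0.127 to 0.647 TPM in the other libraries, so it entered the tests only through the group in which it was high. Markers of T and NK cells summed to between 3.30 and 7.91 TPM per library and myeloid markers to between 0.164 and 2.06 TPM. The T cell gene CD3E held 4.36 and 5.26 TPM with the inhibitor, 5.66 and 4.88 TPM with sh1, 5.82 and 5.89 TPM with sh2, and 3.46 and 3.23 TPM in shControl, and it held 6.38 and 7.74 TPM with overexpression and 3.67 and 3.76 TPM in Vector. It was called higher with the inhibitor (0.41, limma adjusted p = 0.013), the shRNAs (0.59, adjusted p = 0.00069) and overexpression (0.77, adjusted p = 0.00054). The part of these markers in the changes of the 10 genes was not tested.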

How the data were processed

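The authors deposited TPM per gene for each library. RSEM 1.3.1, Bowtie2 2.3.4.3, HISAT and the build GRCh38.p13 are named in the submitters' processing notes, with no role given; per the labels, RNA was poly(A)-selected and libraries were stranded. TPM keeps no depth, so the depth of each library is unknown and no count model was used. TPM of a gene also depends on all other genes of its library. A gene was tested where 2 or more libraries reached 1 TPM. Values were log2(TPM + 1), a scale that understates changes of low genes such as ACSS2. The limma package 3.58.1 in R 4.3.3 fitted 6 group means to all 12 libraries with an eBayes mean-variance trend, and p-values were adjusted by Benjamini-Hochberg over 12731 genes within each of 10 comparisons; a call is an adjusted p below 0.05. With 2 libraries per group an exact permutation test cannot reach that threshold. The fit was tested on simulated data.

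The 10 genes and the other lists were chosen with earlier results of these data known. From each other list up to 3 called genes of largest change with a mean of at least 5 TPM could be named per comparison, and for FASN and FADS2 the 5 other genes of highest r with a mean of at least 10 TPM; some genes that this rule names are not reported here. Listed symbols not in the table were matched through RefSeq synonyms. Other settings tried were a fit of only the groups compared, a minimum of 5 TPM or no minimum, pseudocounts of 0.1 and 0.5, median-of-ratios rescaling, quantile normalization, eBayes without trend, robust eBayes, a replicate block, exchanged control columns and leaving out each library; for the other lists the exchange was chosen after seeing the data.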

Additional observations from a re-analysis of the deposited data

Results flagged for a closer look

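FADS2 differed between the shRNAs, each of which was set against the same shControl libraries: it was higher with sh2 than with sh1 by 0.19 log2 units (SE 0.034, limma with Benjamini-Hochberg adjusted p = 0.034). The libraries held 86.3 and 88.9 TPM with sh2, against 77.8 and 75.2 TPM with sh1. The call was lost after median-of-ratios rescaling (0.16), with only the groups compared in the fit, without the trend, with the replicate block and without each of the 4 libraries in turn (0.17 to 0.22).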

How the results depend on the processing

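The counts of members called lower with the inhibitor (7), with the shRNAs together (5), with sh1 (5), with sh2 (4) and with overexpression (5) stayed within 1.5 times their value under every alternative run. The counts that follow describe how the main counts moved and not an excess over all genes. For members called, exchange of the control columns gave 0 higher with the shRNAs and 0 with sh1, 1 with sh2, 4 with overexpression and 2 for inhibitor minus overexpression effect, and 4 lower for shRNA minus overexpression effect. Over all tested genes 18.6%, 17%, 16%, 44.9% and 20.8% were called higher and 45.3% lower in the same order. For sh2 the members called higher were 1 with no filter, median-of-ratios rescaling, quantile normalization or only the groups compared, and for sh1 1 with only the groups compared. In the same order 2528 of 20633, 2259 of 12679, 2212 of 12731 and 2559 of 12731 tested genes were higher with sh2. For sh1 they were 2354 of 12731. Between the shRNAs 0 members were called after median-of-ratios rescaling, with only the groups compared and without trend. Of all tested genes 0.765%, 0.0393% and 0.165% were called under these settings. For Vector against shControl, members called lower were 1 with no filter, quantile normalization or no trend, and higher 1 after quantile normalization. Over all tested genes 878 of 20633, 1651 of 12731 and 848 of 12731 were lower in Vector in that order. After quantile normalization 1549 of 12731 were higher. Leaving out each library gave for members called 1 to 2 higher and 1 to 1 lower in Vector, 1 to 2 higher with sh1 (1 without sh1 replicate 2), 1 to 2 with sh2 (1 without sh2 replicate 1), 0 to 1 between the shRNAs and 0 to 1 for the inhibitor against the shRNAs (1 without sh1 replicate 1).

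Changes of sign with exchanged control columns were, for the shRNAs, ACSS2 -0.12, FADS2 0.0093, ELOVL5 -0.11 and ELOVL6 -0.025, and for overexpression ACSS2 0.46, ELOVL5 0.16 and ELOVL6 0.40. They were FASN 0.21 for inhibitor minus overexpression effect, and ACSS2 -0.58, ELOVL5 -0.27 and ELOVL6 -0.42 for shRNA minus overexpression effect. Median-of-ratios rescaling turned, in Vector against shControl, ACACA to -0.062, SCD to -0.072, FADS1 to -0.074 and AGPAT2 to -0.072, and the effect differences of ELOVL6 to 0.015 (inhibitor minus overexpression) and FADS1 to 0.051 (shRNA minus overexpression). Quantile normalization turned ACACA to -0.079, FADS1 to -0.11 and AGPAT2 to -0.13 in Vector, ACLY to -0.053 for inhibitor against shRNAs and FADS1 to 0.057 for shRNA minus overexpression effect.

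Leaving out each library changed signs only among values not called with all libraries: AGPAT2 -0.10 to 0.29 with the shRNAs (called at 0.29, without shControl replicate 2), ACSS2 -0.093 to 0.042, ELOVL5 -0.064 to 0.0026 and ELOVL6 -0.079 to 0.0080 with overexpression, and FADS1 -0.019 to 0.066 and AGPAT2 -0.17 to 0.21 in Vector. For inhibitor minus overexpression effect these were FASN -0.12 to 0.012, ELOVL5 -0.15 to 0.0011 and ELOVL6 -0.074 to 0.013, and for shRNA minus overexpression effect FADS1 -0.057 to 0.028. Apart from the exchange and the left-out libraries, whose construction changes the samples compared, the cause of these changes was not tested.

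With the replicate number as a block, members called higher were 1 for sh2 and 0 between the shRNAs, where FADS2 had a limma adjusted p of 0.055. No other call on the members changed. Of 12731 tested genes 2724 were called higher for sh2 under that setting and 87 between the shRNAs. Replicate numbers do not pair the samples: over 15 pairs of groups their deviations correlated between -0.10 and 0.14, and 1 pair was over 0.1. Over all genes, the percentage called was lowest with no filter in most comparisons, at 22.2% for the inhibitor, 27.3% for the shRNAs, 22% for overexpression, 16% for Vector, 19.7% for sh2 and 26.3% for sh1, and it was 0.0393% between the shRNAs with only those groups in the fit. It was highest with the control columns exchanged at 52.9% for the inhibitor, 58.7% for overexpression, 62.9% for inhibitor minus overexpression effect and 59.7% for shRNA minus overexpression effect, and with a minimum of 5 TPM at 54% for the shRNAs, 35.4% for Vector, 53.5% for sh1, 42.4% for sh2, 62.1% for the inhibitor against the shRNAs and 3.42% between the shRNAs. Read depth is unknown, so how far it limits low genes such as ACSS2 cannot be given.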
